A study of Mus musculus with 8 samples.

Results

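Cholesterol is made in animal cells from acetyl-CoA through the mevalonate pathway, and when membranes run short of it the transcription factor SREBP-2 turns on the genes of synthesis. The precursor of SREBP-2 is held in the endoplasmic reticulum by INSIG proteins while sterols are plentiful, and is carried to the Golgi by SCAP and cut there by proteases when they are not. Keratinocytes, the lineage of basal cell carcinoma, also use sterols for the lipid barrier of the skin. The 8 genes described here were chosen by symbol, out of 23442 symbols in the RasV12 table and 22828 in the ASZ table. They are Srebf2, which encodes SREBP-2, its inhibitor Insig1, and the 6 enzyme genes Hmgcs1, Idi1, Fdft1, Sqle, Lss and Cyp51. None of the 8 is itself an uptake gene, so genes of uptake and transport are given as a separate list. All 8 had a row in both tables, and 7 had a measurable level and a test in both.

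RNA was sequenced from ASZ, a line grown from a basal cell carcinoma of the mouse, as 8 libraries in 4 groups of 2. The groups were ASZ cells that express RasV12 (activated Ras, a small GTPase that signals to MAP kinases) with CBD, the same RasV12 cells with DMSO, wild-type ASZ cells with CBD and wild-type ASZ cells with DMSO, the vehicle. The labels give neither the full name of CBD, its dose and time, nor which Ras gene the construct carries, whether the RasV12 cells are 1 clone, or whether the libraries of a group come from separate cultures. Each deposited table gave 1 FPKM value (fragments per kilobase of transcript and 1e6 fragments) per group and gene, so no spread between the 2 libraries can be shown and the p-values may measure technical spread only.

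Sqle, which encodes squalene epoxidase, an oxygen-dependent and rate-limiting step of sterol synthesis, was the member that fell with CBD in both lines. It stood at 39.0 FPKM in RasV12 cells with CBD, against 102 FPKM in RasV12 cells with DMSO, and at 35.0 FPKM in ASZ cells with CBD, against 92.0 FPKM in ASZ cells with DMSO. Both CBD values lay below both DMSO values, and in bulk RNA a lower level per cell and fewer cells with the transcript cannot be told apart. The log2 ratio of CBD to DMSO was -1.39 in RasV12 cells (SE at most 0.34, adjusted p 0.000325) and -1.39 in ASZ cells (SE 0.23, adjusted p 4.9e-09). Of all genes tested, 14.7% had a lower ratio than Sqle in RasV12 cells and 25.5% in ASZ cells. Each standard error (SE) is the one implied by the authors' p-value, and an adjusted p (Benjamini-Hochberg over all genes tested in that table) under 0.05 was called. Insig1, the sterol-sensing brake on SREBP-2, fell in ASZ cells and was at nearly the same level in both groups of RasV12 cells. In ASZ cells 35.6% of all genes tested had a lower ratio than Insig1. On the deposited scale the other 5 members with a level passed the test in neither line.

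**Figure D1:**
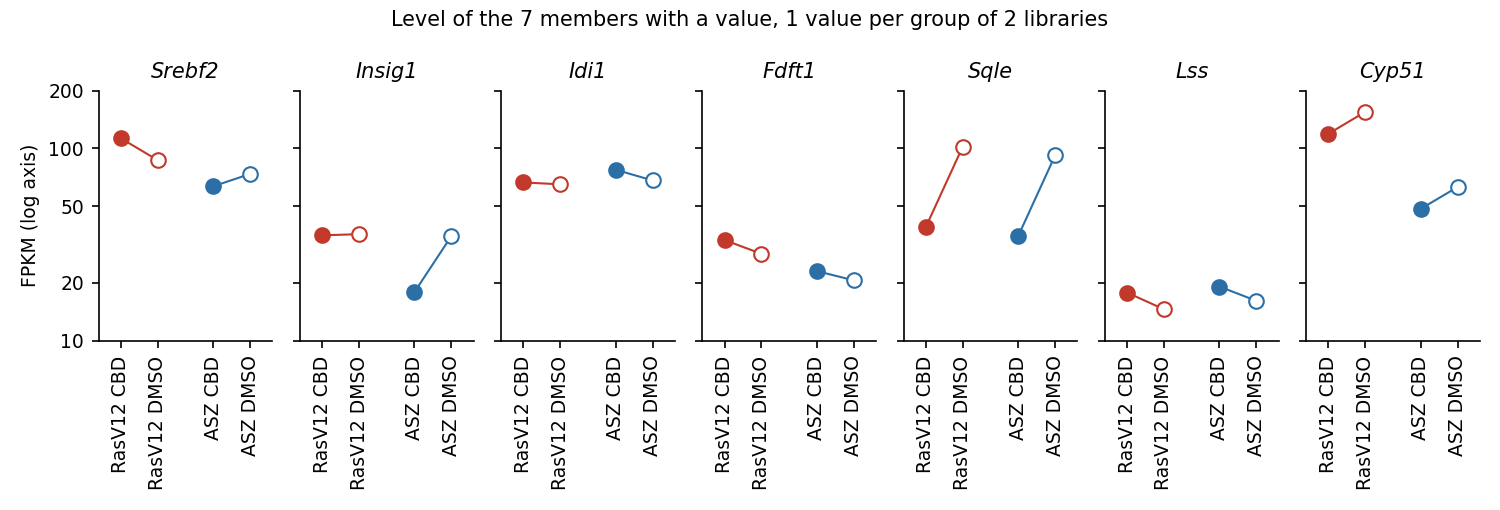
FPKM of the 7 members with a level (log axis, 1 panel per gene), with filled points for CBD and open points for DMSO, red for RasV12 cells and blue for wild-type ASZ cells. Each point is the authors' single value for a group of 2 libraries. Sqle drops to 39.0 and 35.0 FPKM with CBD in both lines, Insig1 to 17.9 FPKM in ASZ cells, and Cyp51 is higher in both RasV12 groups than in both ASZ groups.

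The members did not move as a group. On the deposited scale the share called lower stood under that of all genes in both lines, but 7 genes are too few to set these shares apart. In RasV12 cells 1 of 7 members (14.3%) was lower and 0 were higher, while 24.4% of 11070 genes tested were called lower and 18.7% were called higher. In ASZ cells 2 of 7 members (28.6%) were lower and 0 were higher, while 42.4% of 10696 genes were called lower and 14% were called higher. The median log2 ratio of the members was 0.03 in RasV12 cells, against -0.01 over all genes, and -0.21 in ASZ cells, against -0.44 over all genes. The sign of the members' median depends on the scaling. In ASZ cells it was 0.23 with the median of all genes set to 0, 0.55 with the median of each gene's length bin subtracted and -0.73 with equal FPKM sums, and in RasV12 cells it was -0.56 with equal FPKM sums and -0.40 with equal fragment mass. On the deposited values the balance of Sqle to Idi1 within the set differed between CBD and DMSO. Sqle was 0.586 times the level of Idi1 in RasV12 cells with CBD and 1.57 times it with DMSO. In ASZ cells Sqle was 0.452 times the level of Idi1 with CBD and 1.35 times it with DMSO. Scaling of a whole group cannot move these ratios, but a shift that goes with transcript length can. Sqle (4467 nt) and Idi1 (3027 nt) lie in different length bins. The median log2 ratios of these bins were -0.33 and 0.03 in RasV12 cells and -0.96 and -0.36 in ASZ cells. Equal FPKM sums would move every log2 ratio by -0.59 in RasV12 cells and by -0.52 in ASZ cells. With that scaling 3 of 7 members were lower in RasV12 cells (Sqle, Insig1 and Cyp51), where 4702 of 11070 genes were. In ASZ cells 4 of 7 members were lower (the same genes and Srebf2), where 6334 of 10696 genes were. Both shares of the members thus lay near those of all genes under that scaling. The log2 ratio of Sqle minus the median of the other 6 members was -1.52 in RasV12 cells and -1.37 in ASZ cells. Sqle was singled out as the member with the lowest ratio, so this distance is a description. The authors' filtered genes, 2702 for RasV12 cells and 4489 for ASZ cells, held Sqle for both lines and Insig1 for ASZ cells. They come from the same comparisons and so are not separate support.

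Among the regulators, Srebf2 had 113 FPKM in RasV12 cells with CBD, against 86.9 FPKM with DMSO (log2 ratio 0.38, SE 0.26, adjusted p 0.238). In ASZ cells it had 63.6 FPKM with CBD, against 73.7 FPKM with DMSO (log2 ratio -0.21, SE 0.22, adjusted p 0.411). On the deposited scale the values lay on opposite sides of the vehicle in the 2 lines, but neither ratio passed. The opposite signs depend on that scale. With equal FPKM sums the log2 ratio was -0.21 in RasV12 cells and -0.73 in ASZ cells. With the median of the length bin subtracted it was 0.71 and 0.75. The difference of the 2 ratios, RasV12 minus ASZ, was 0.59, with a 95% interval from -0.08 to 1.26 (adjusted p 0.309).

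Insig1 had 35.4 FPKM in RasV12 cells with CBD, against 35.9 FPKM with DMSO (log2 ratio -0.02, SE 0.27, adjusted p 0.960). In ASZ cells it had 17.9 FPKM with CBD, against 35.1 FPKM with DMSO (log2 ratio -0.97, SE 0.24, adjusted p 0.000143). The other 3 groups stood within 1 FPKM of each other, and ASZ cells with CBD stood lower. The response of RasV12 cells was 0.95 above that of ASZ cells on the log2 scale, with a 95% interval from 0.25 to 1.65, and this difference did not pass after adjustment over 10399 genes (p 0.00794, adjusted p 0.0716). Of all genes, 8.65% passed that test as higher in RasV12 cells and 0.577% as lower, and of the members 0 of 7 passed. With equal FPKM sums in both groups, Insig1 passed as lower in RasV12 cells too (log2 ratio -0.61, adjusted p 0.0493).

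**Figure D2:**
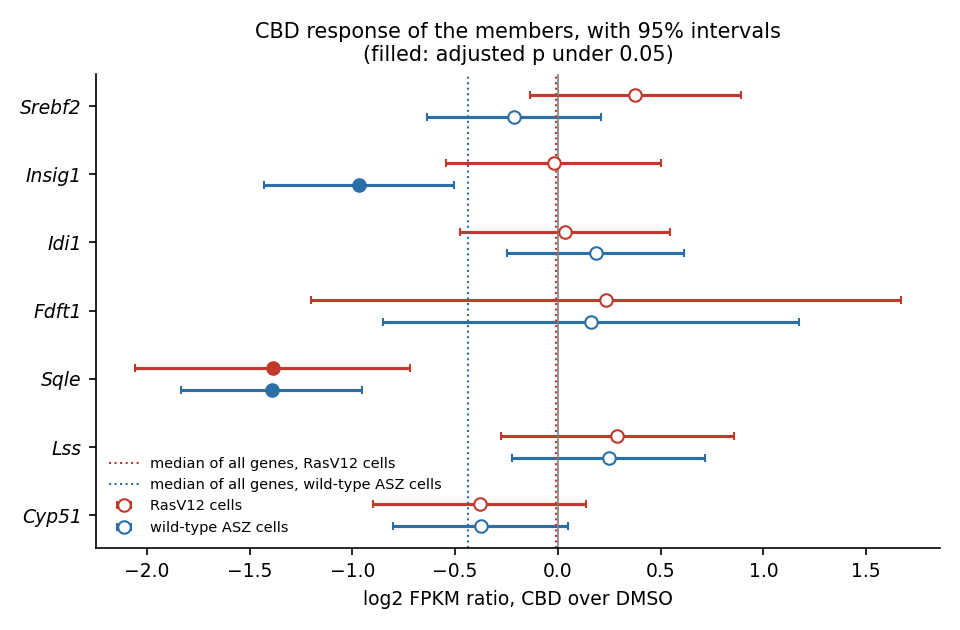
log2 FPKM ratio of CBD over DMSO for the 7 members, with 95% intervals from the implied standard errors, red for RasV12 cells and blue for wild-type ASZ cells. Filled points had an adjusted p under 0.05, and dotted lines mark the median of all genes (-0.01 in RasV12 cells and -0.44 in ASZ cells). Sqle lies at -1.39 in both lines, and Insig1 at -0.02 in RasV12 cells and -0.97 in ASZ cells.

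On the deposited scale the members that act up to squalene passed the test in neither line. Hmgcs1, the HMG-CoA synthase of the mevalonate pathway, was listed at 0 in all 4 groups, on 2 rows of each table and without a test. Of the symbols that stood on several rows, 144 in the RasV12 table and 189 in the ASZ table were likewise listed at 0 in both groups, so this entry gives no level for Hmgcs1. Idi1, the isomerase that makes dimethylallyl diphosphate, had 66.6 FPKM in RasV12 cells with CBD, against 65.1 FPKM with DMSO (log2 ratio 0.03, SE 0.26). In ASZ cells Idi1 had 77.5 FPKM with CBD, against 68.2 FPKM with DMSO (log2 ratio 0.18, SE 0.22). Idi1 passed as higher in ASZ cells with the median of all genes set to 0 (log2 ratio 0.62, adjusted p 0.00961). It also passed there with the median of its length bin subtracted (0.55, adjusted p 0.0281).

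Fdft1, squalene synthase, had 33.4 FPKM in RasV12 cells with CBD, against 28.4 FPKM with DMSO (log2 ratio 0.24, SE 0.73). In ASZ cells it had 23.0 FPKM with CBD, against 20.6 FPKM with DMSO (log2 ratio 0.16, SE 0.52). Its implied standard errors were the widest of the members, whose others ran between 0.26 and 0.34 in RasV12 cells and between 0.22 and 0.24 in ASZ cells. The 95% interval of the Fdft1 ratio therefore reached from -1.20 to 1.67 in RasV12 cells and from -0.85 to 1.17 in ASZ cells.

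After the Sqle step, Lss, the cyclase that forms lanosterol, was the lowest member with a level in 3 of the 4 groups. It had 17.8 FPKM in RasV12 cells with CBD, against 14.6 FPKM with DMSO (log2 ratio 0.29, SE 0.29). The ASZ cells had 19.2 FPKM of Lss with CBD and 16.2 FPKM with DMSO (log2 ratio 0.25, SE 0.24). Cyp51, the lanosterol demethylase, had 119 FPKM in RasV12 cells with CBD, against 155 FPKM with DMSO (log2 ratio -0.38, SE 0.26, adjusted p 0.239). In ASZ cells it had 48.5 FPKM with CBD, against 63.0 FPKM with DMSO (log2 ratio -0.38, SE 0.22, adjusted p 0.131). The 2 ratios were almost equal, with a difference of -0.0037 and a 95% interval from -0.68 to 0.67. For Sqle the difference was 0.0047, with an interval from -0.80 to 0.81, so the intervals still allow responses that differ between the lines.

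Cyp51 was the member whose level stood furthest apart between the lines under DMSO. Levels of the lines come from tables normalised apart, so they were compared without a test, after subtraction of the median log2 difference of 10431 genes. Cyp51 was 2.18-fold higher in RasV12 cells than in ASZ cells under DMSO, above 96.2% of those genes, and 1.61-fold higher under CBD, above 83.8% of them. The other members under DMSO lay between 0.801-fold (Lss) and 1.22-fold (Fdft1). Under CBD Idi1 (0.563-fold) and Lss (0.610-fold) stood further from equal levels than Cyp51, on the low side in RasV12 cells. Without the subtraction the log2 difference under CBD was 1.29 in place of 0.68 for Cyp51, 0.98 in place of 0.37 for Insig1, 0.83 in place of 0.22 for Srebf2, -0.22 in place of -0.83 for Idi1 and -0.10 in place of -0.71 for Lss, and that of Sqle changed sign to 0.16, against -0.45. The order of levels changed with CBD. In RasV12 cells with DMSO it ran Cyp51, Sqle, Srebf2, Idi1, Insig1, Fdft1 and Lss, and with CBD Sqle stood just under Cyp51, Srebf2 and Idi1. In ASZ cells with DMSO Sqle was first, above Srebf2, Idi1 and Cyp51, and with CBD it stood under the same 3 genes, while Insig1 was last. No spread between libraries is known, so no neighbours in these orders can be said to differ.

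Promoter windows were read to see which elements the members share. The table from RefSeq (GRCm38.p6) held 6 of the 8 members, and the windows are the 250 bases before the annotated start. Shown are the 2 windows with a match to the core of the sterol regulatory element (Insig1 and Hmgcs1) and those of Srebf2 and Cyp51. Srebf2 had opposite signs in the 2 lines on the deposited scale, and the level of Cyp51 differed most between the lines under DMSO. Capitals mark the sterol element core (CACNCCAC), the NF-Y box (CCAAT) and the Sp1 box (GGGCGG), on either strand, 5′ to 3′ on the gene's strand.
Insig1 (chr5:28071162-28071411, + strand): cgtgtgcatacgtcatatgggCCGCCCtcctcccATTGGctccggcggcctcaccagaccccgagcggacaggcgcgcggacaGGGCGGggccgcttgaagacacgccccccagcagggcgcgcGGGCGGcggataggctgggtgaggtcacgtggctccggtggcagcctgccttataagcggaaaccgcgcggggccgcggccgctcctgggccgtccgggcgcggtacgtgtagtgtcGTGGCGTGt
Hmgcs1 (chr13:119690101-119690350, + strand): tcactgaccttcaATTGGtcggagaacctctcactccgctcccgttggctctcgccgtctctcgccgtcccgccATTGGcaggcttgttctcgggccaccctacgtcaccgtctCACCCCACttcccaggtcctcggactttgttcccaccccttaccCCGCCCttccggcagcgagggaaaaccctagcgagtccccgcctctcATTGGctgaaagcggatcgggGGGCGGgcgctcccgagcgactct
Srebf2 (chr15:82147019-82147268, + strand): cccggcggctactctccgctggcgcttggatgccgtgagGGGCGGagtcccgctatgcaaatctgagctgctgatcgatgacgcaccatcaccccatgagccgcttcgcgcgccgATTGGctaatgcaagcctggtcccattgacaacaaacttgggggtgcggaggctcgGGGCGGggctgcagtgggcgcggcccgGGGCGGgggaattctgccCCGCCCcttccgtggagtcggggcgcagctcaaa
Cyp51 (chr5:4104698-4104947, - strand): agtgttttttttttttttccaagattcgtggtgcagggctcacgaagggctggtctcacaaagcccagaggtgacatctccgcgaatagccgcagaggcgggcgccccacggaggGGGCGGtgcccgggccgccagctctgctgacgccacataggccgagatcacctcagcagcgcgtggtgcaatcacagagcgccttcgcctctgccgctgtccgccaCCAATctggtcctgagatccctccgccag

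All 6 windows held CCAAT and all 6 held GGGCGG, against 33.8% and 32.7% of 32851 promoter windows of the same length. Of 15 windows of the other enzymes of cholesterol synthesis, 73.3% held CCAAT and 80% held GGGCGG, so these boxes are not particular to the members. The sterol element core matched in 2 of 6 members, against 5.29% of all windows and 1 of 15 windows (6.67%) of those other enzymes. In Hmgcs1 it lay 136 to 129 bases before the start, and in Insig1 it lay on the other strand, 9 to 2 bases before the start. With every letter fixed as CACCCCAC, 1 of 6 members matched, against 2.58% of all windows. Matches of these letters are descriptions of sequence, and the RNA data do not test whether a factor bound there. A window without a match may still hold a variant of the sterol element that these letters miss. Because all 6 windows carry CCAAT and GGGCGG, the members cannot be compared by the presence of these boxes. A link between the boxes and the CBD response was not tested.

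Along the rest of the pathway, some enzymes fell while others did not pass the test. Of 12 other enzymes tested, 2 (16.7%) fell and 0 rose in RasV12 cells, where 24.4% of all genes were called lower and 18.7% higher. In ASZ cells 4 (33.3%) fell and 2 (16.7%) rose, where 42.4% of all genes were called lower and 14% higher, so the shares of these enzymes lay near or under those of all genes. Msmo1, a sterol methyl oxidase that acts after Cyp51, had 49.2 FPKM in RasV12 cells with CBD, against 121 FPKM with DMSO, and 27.7 FPKM in ASZ cells with CBD, against 79.1 FPKM with DMSO. Lbr, which has sterol reductase activity and also holds heterochromatin at the nuclear envelope, fell in both lines (log2 ratio -0.92 in RasV12 cells and -2.23 in ASZ cells).

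Among the enzymes described here, Sqle, Msmo1 and Lbr thus fell in both lines. In RasV12 cells the calls of Sqle and Msmo1 held in all 11 alternatives run, and in ASZ cells those of Msmo1, Lbr and Insig1 did. Pmvk and Fdps, early enzymes of the mevalonate pathway, rose in ASZ cells (log2 ratio 1.11 and 0.63), and Acat2 and Sc5d fell there (-0.66 and -0.89). Fdps did not pass with equal FPKM sums, nor did Acat2 with the median of all genes set to 0, nor Pmvk and Sc5d with the median ratio of their length bin subtracted. Dhcr7, a sterol reductase late in the pathway, passed in neither line. Split at squalene, 0 of 7 enzymes tested up to it fell in RasV12 cells and 3 of 10 (30%) after it, against 24.4% of all genes. In ASZ cells 1 of 7 (14.3%) fell and 2 rose up to squalene, and 4 of 10 (40%) fell and 0 rose after it, against 42.4% of all genes lower and 14% higher. The enzymes after squalene were thus called lower about as often as all genes in both lines.

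**Figure D3:**
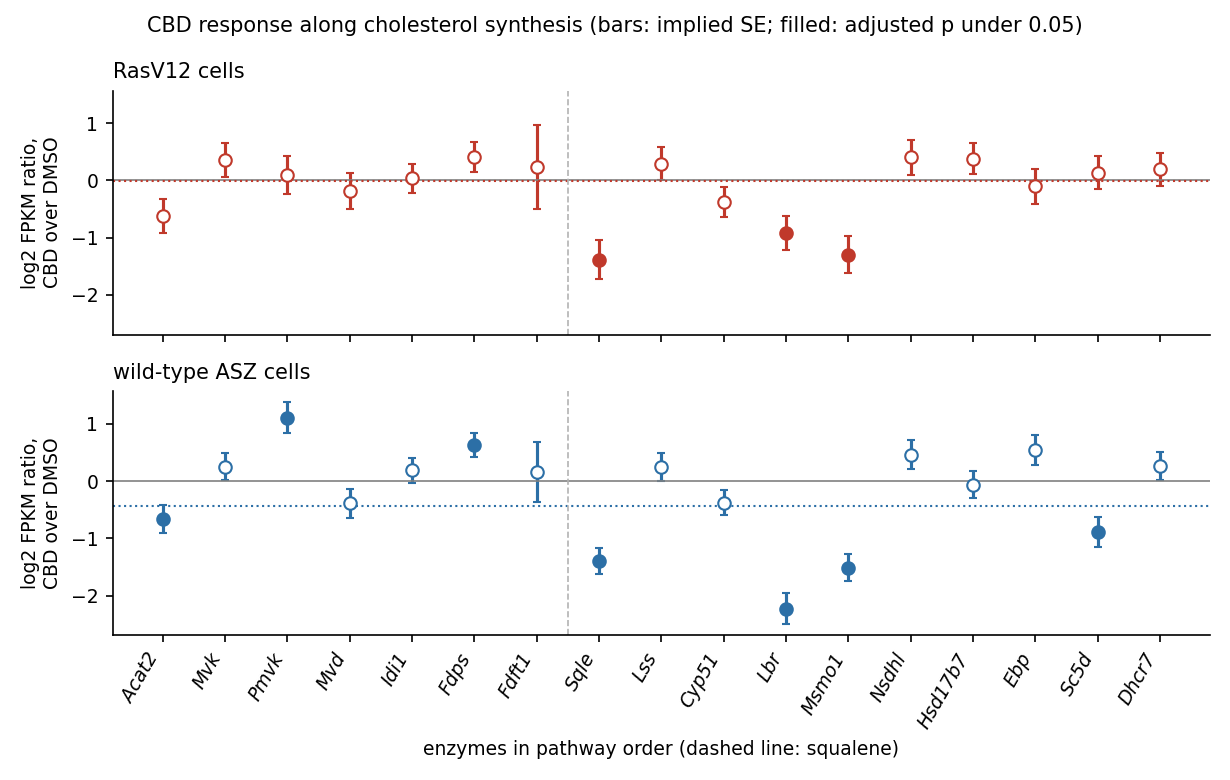
log2 FPKM ratio of CBD over DMSO for the enzymes tested, in pathway order, RasV12 cells above and wild-type ASZ cells below, with bars for the implied SE and a dashed line at squalene. Filled points had an adjusted p under 0.05, and dotted lines mark the median of all genes. Sqle, Lbr and Msmo1 lie below 0 as filled points in both panels.

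Transcript length moved with the response and differed among the members. In RasV12 cells the median log2 ratio was 0.57 in the shortest of 10 equal bins of transcript length and -0.64 in the longest, and in ASZ cells it was 0.63 and -1.53. Sqle and Srebf2 have transcripts of 4467 and 5077 nt and share a length bin, of whose genes 35.4% were lower in RasV12 cells and 58.8% in ASZ cells. Insig1, at 2697 nt, lies in a bin where 18.5% were lower in RasV12 cells and 32.1% in ASZ cells. After subtraction of the bin's median, the Sqle ratio was -1.06 in RasV12 cells (adjusted p 0.00902), and in ASZ cells it was -0.43 and no longer passed (adjusted p 0.0987). Insig1 still passed in ASZ cells. By that measure Srebf2 was higher in both lines (0.71 in RasV12 cells and 0.75 in ASZ cells), as was Lss (0.93 and 1.78), whose transcript of 6992 nt is in the longest bin. Idi1 passed as higher in ASZ cells alone (0.55). The part of length in these results was not tested further.

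**Figure D4:**
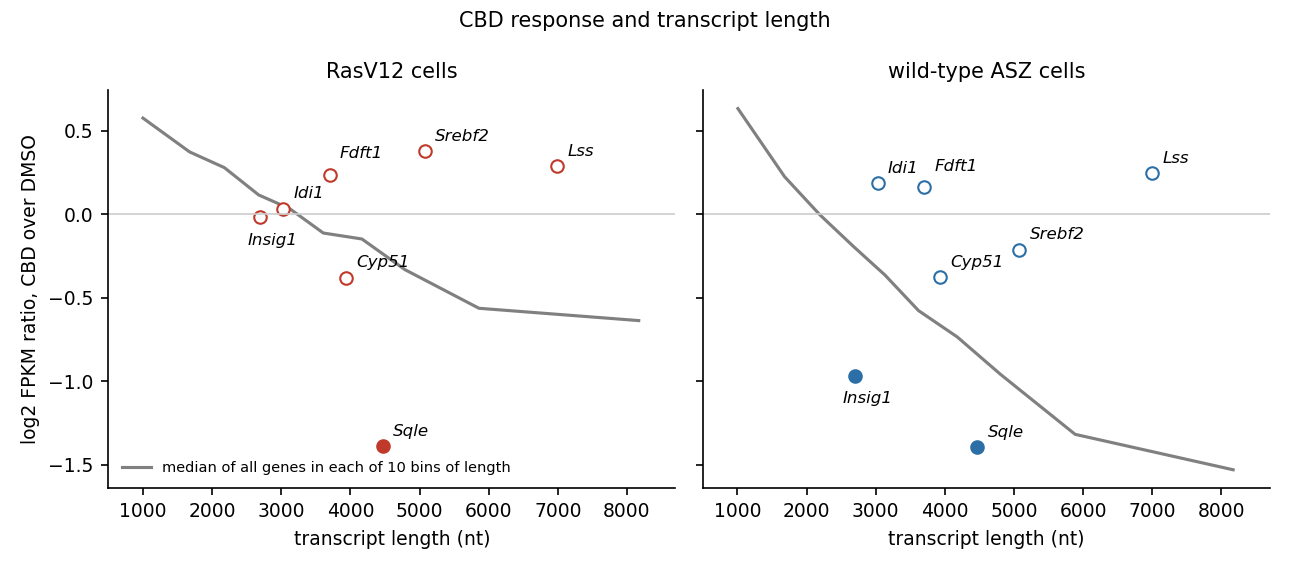
log2 FPKM ratio of CBD over DMSO against transcript length for the 7 members, RasV12 cells on the left and wild-type ASZ cells on the right, with filled points for an adjusted p under 0.05. The grey line joins the medians of all genes in each of 10 bins of length. Sqle lies below the line in both panels, and Lss, Srebf2 and Fdft1 lie above it in both.

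Of 10 genes that process or degrade SREBP, 2 (20%) rose and 3 (30%) fell in RasV12 cells, against 18.7% and 24.4% of all genes. In ASZ cells 0 rose and 6 (60%) fell, against 14% and 42.4%. Scap, the escort of SREBP, had 43.0 FPKM in RasV12 cells with CBD, against 21.8 FPKM with DMSO (log2 ratio 0.98), which did not pass with equal FPKM sums, and it passed no test in ASZ cells. Mbtps2, a protease that cuts SREBP, and Erlin2 and Faf2, which serve the degradation of membrane proteins, fell in both lines, although Mbtps2 in both lines and Erlin2 in ASZ cells did not pass after subtraction of the length bin's median. Faf2 had 6.97 FPKM in RasV12 cells with CBD, against 28.2 FPKM with DMSO, and 4.25 FPKM in ASZ cells with CBD, against 20.3 FPKM with DMSO. Srebf1, the paralogue of Srebf2 that favours fatty acid genes, had 51.2 FPKM in RasV12 cells with CBD, against 44.8 FPKM with DMSO, and fell to 25.0 FPKM in ASZ cells with CBD, against 65.1 FPKM with DMSO. Insig2, the paralogue of Insig1, passed in neither line.

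Uptake and transport of cholesterol had 11 of 12 listed genes tested, of which 5 (45.5%) rose and 3 (27.3%) fell in RasV12 cells, against 18.7% and 24.4% of all genes. In ASZ cells 2 (18.2%) rose and 5 (45.5%) fell, against 14% and 42.4%. Vldlr, Osbp and Soat1, which esterifies cholesterol for storage, fell in both lines, and Npc2, which moves cholesterol out of lysosomes, and Gramd1a rose in both. Soat1 passed in neither line after subtraction of the length bin's median, and with equal FPKM sums Npc2 passed in neither line and Gramd1a not in ASZ cells. Osbp, a sterol-binding transfer protein, had 3.12 FPKM in RasV12 cells with CBD, against 12.3 FPKM with DMSO, and 1.71 FPKM in ASZ cells with CBD, against 11.4 FPKM with DMSO. Lrp1, a large endocytic receptor, had 29.7 FPKM in RasV12 cells with CBD, against 7.02 FPKM with DMSO.

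Of 3 efflux and LXR genes tested among 6 listed, 2 fell in RasV12 cells and 3 in ASZ cells, against 24.4% and 42.4% of all genes. Abca1, the cholesterol exporter, had 0.223 FPKM in RasV12 cells with CBD, against 1.67 FPKM with DMSO, and 0.0582 FPKM in ASZ cells with CBD, against 1.64 FPKM with DMSO. Mylip, an LXR target that encodes a ubiquitin ligase, fell in both lines (log2 ratio -2.28 in RasV12 cells and -2.98 in ASZ cells). Fatty acid synthesis had 11 genes tested, of which 5 (45.5%) rose and 1 (9.09%) fell in RasV12 cells, against 18.7% and 24.4% of all genes. In ASZ cells 0 rose and 2 (18.2%) fell, against 14% and 42.4%. Fasn, fatty acid synthase, had 141 FPKM in RasV12 cells with CBD, against 53.9 FPKM with DMSO, and Acaca had 40.3 FPKM with CBD, against 15.5 FPKM with DMSO, and both passed in all 11 alternatives. Scd1, Fads1 and Fads2 rose too, but did not pass with equal FPKM sums. Elovl6 fell in both lines, and Scd2, a desaturase, fell in ASZ cells to 93.4 FPKM with CBD, against 455 FPKM with DMSO. Of 10 genes of other mevalonate branches, 2 (20%) rose in RasV12 cells (Coq2 and Icmt), against 18.7% of all genes, and 2 (20%) fell in ASZ cells (Ggps1 and Fnta), against 42.4%, and none of these 4 passed under every scaling.

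**Figure D5:**
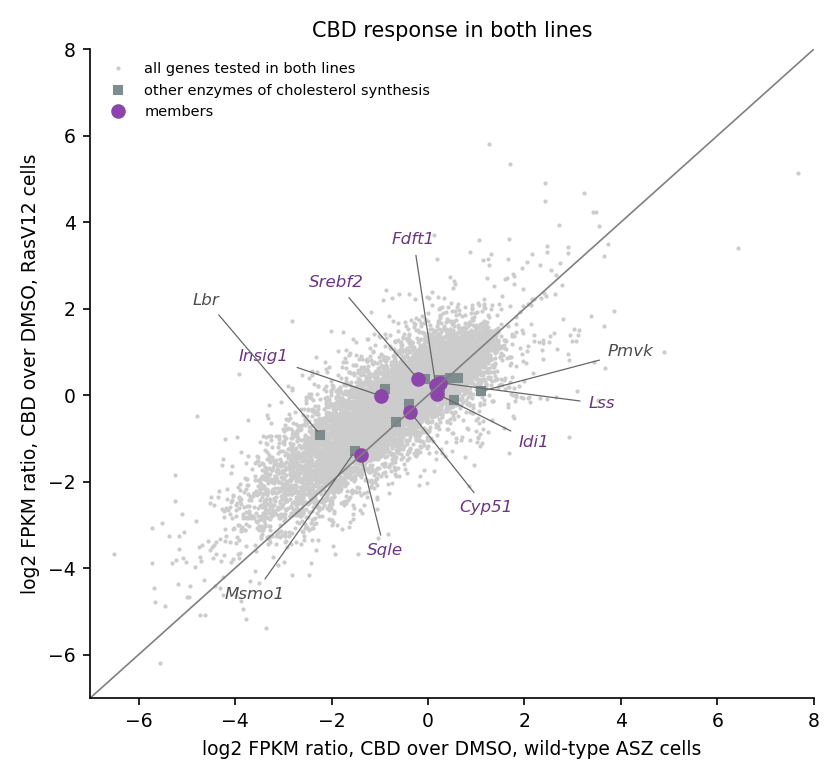
log2 FPKM ratio of CBD over DMSO in RasV12 cells (vertical axis) against wild-type ASZ cells (horizontal axis) for 10399 genes tested in both. Purple circles are the members, grey squares the other enzymes, and the line marks equal ratios. Sqle, Cyp51, Lss, Idi1 and Fdft1 lie close to the line, while Insig1 and Lbr lie above it.

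Over the 4 groups, the members' median profile was 0.23 in RasV12 cells with CBD, 0.13 in RasV12 cells with DMSO, -0.37 in ASZ cells with CBD and -0.06 in ASZ cells with DMSO, on a log2(FPKM + 1) scale centred on each gene's mean. The 5 genes nearest to it were Exosc8, Pi4k2a, H1f1, Plod2 and Tmem214, at distances of 0.04 to 0.07. Srebf2 was the nearest member, at 0.24, and Sqle the farthest, at 1.31. The 5 genes were picked as the nearest of all genes used in both lines. Their smaller distances therefore do not measure how alike the members are. These distances rest on 4 values per gene and are a description.

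Across the series, the estimated depth was 10.8 and 16.7 M fragments (M is 1e6) per library in RasV12 cells with CBD and DMSO, and 13.9 and 14.3 M in ASZ cells with CBD and DMSO. The estimate comes from the lowest steps of FPKM, and unequal scaling would shift it. It puts the members with a level at about 1348 to 20391 fragments per gene and group. All 8 basal keratinocyte markers were at 1 FPKM or more in all 4 groups, at summed levels between 9480 and 11466 FPKM. Of 6 fibroblast markers 0 reached 1 FPKM in any group, and of 4 endothelial markers 1 did (Pecam1, between 9.44 and 23.3 FPKM). Cd68 was the immune marker above that level, at 8.99 to 53.8 FPKM with Ptprc at or near 0, and of 4 melanocyte markers Mitf was at 1.05 to 9.76 FPKM and Tyr at 0.209 to 4.11 FPKM and Pmel at 0.460 to 1.14 FPKM, with Dct at or near 0.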

How the data were processed

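Reads were handled by the authors with TopHat and Cufflinks on mm9, per the submitters' processing notes, whose versions are not given in the sources used here. Deposited by the authors were 2 tables, 1 for each line, with 1 FPKM value per gene and group over 2 libraries and an unadjusted p-value per gene. The computation of that p-value is not stated in those sources. It was listed as 0 for 554 ASZ genes used, and never stood below 5e-05 in the RasV12 table, where 1705 genes stood at that value. The deposited tables of filtered genes also hold the authors' log2 fold changes.

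A gene was used if it had a test and reached 1 FPKM in either group, 11070 for RasV12 cells and 10696 for ASZ cells, and p-values were adjusted within each table with the Benjamini-Hochberg method. No pseudocount was added. Where a symbol stood on several rows, the highest row was used if all others were under 10% of it. The SE was the size of the log2 ratio over the normal quantile that its p implies, an upper bound at the lowest p. Ratios under another scaling were tested again with these SEs, so genes at the lowest p fail such a test more easily. The difference between lines had a two-sided normal test based on both SEs, adjusted over 10399 genes, although the tables hold p-values of 2 kinds. The steps were tested on simulated data drawn from the same normal model, without a shift of all genes or one that goes with length. That test checks the computation, and not whether the model holds for these data. Transcript lengths came from the longest GENCODE vM21 transcript, with a value for 97.1% of RasV12 and 97.4% of ASZ genes used. Python 3.11.15, pandas 2.3.3 and scipy 1.17.1 were used.

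All 8 members are named. From the other lists the text names the genes called in both lines, up to 4 others per line with the largest changes, and a few key genes whatever their values. Some genes of these lists are not reported here and are not in the counts of the lists. Members and lists were chosen with earlier results of these data known. Scaling, length, filter, pseudocount and threshold were varied.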

Additional observations from a re-analysis of the deposited data

Results flagged for a closer look

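None of the 7 members with a test had a CBD response that differed between the lines after adjustment, but 9 of 57 genes tested in the other lists did, each with a higher log2 ratio in RasV12 cells than in ASZ cells. Over 10399 genes 8.65% differed in that direction and 0.577% in the other, so the shared direction of the 9 is also that of nearly all genes that differed. Each value is the log2 ratio of CBD to DMSO in RasV12 cells minus that in ASZ cells. Among the enzymes of cholesterol synthesis it was 1.31 for Lbr. In SREBP processing it was 1.23 for Mbtps1 and 1.58 for Srebf1. In uptake and transport it was 1.996 for Lrp1 and 1.28 for Stard4. In fatty acid synthesis it was 1.37 for Acaca, 1.77 for Fasn, 1.09 for Scd1 and 1.97 for Scd2. The median of this difference over all genes was 0.41. With each line centred on its own median, Fasn (1.34, adjusted p 0.0380) and Scd2 (1.54, adjusted p 0.00820) still passed. With the median ratio of each gene's length bin subtracted, 0 of the 9 passed, and the adjusted p was lowest for Scd2, at 0.0877. The SE is an upper bound for Lrp1, Acaca, Fasn and Scd1 in RasV12 cells and for Lbr and Scd2 in ASZ cells. For these genes the tests are stricter than the data require, so failing them does not show equal responses. The part of transcript length in these differences was not tested further.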

How the results depend on the processing

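In ASZ cells members lower numbered 4 with equal FPKM sums, 3 with equal fragment mass and 1 with the length bin's median subtracted, against 2 as reported. Members higher numbered 2 with the median set to 0 and 3 with length subtracted, against 0. Other enzymes lower numbered 6 with equal FPKM sums, 5 with equal fragment mass, 2 with the median set to 0 and 3 at p under 0.001 without adjustment, against 4. Other enzymes higher numbered 1 with equal FPKM sums, 6 with the median set to 0, 1 with equal fragment mass and 1 at p under 0.001, against 2. In RasV12 cells members lower numbered 3 with equal FPKM sums and 2 with equal fragment mass, against 1, and members higher 2 with length subtracted, against 0. Other enzymes lower numbered 4 with equal FPKM sums, 3 with equal fragment mass, 3 with length subtracted and 1 at p under 0.001, against 2. Other enzymes higher numbered 1 with length subtracted, against 0. Other enzymes that differed between the lines numbered 0 with length subtracted, against 1, and the sterol element core was found in 1 member with all letters fixed, against 2. Over all genes, 253 were higher and 4702 lower in RasV12 cells with equal FPKM sums, 669 and 4134 with equal fragment mass, and 997 and 1691 at p under 0.001, against 2072 and 2705. In ASZ cells 436 were higher and 6334 lower with equal FPKM sums, 2971 and 3286 with the median set to 0, 2450 and 2678 with length subtracted, and 783 and 3536 at p under 0.001, against 1501 and 4532. Among single genes with a CBD to DMSO ratio that passed as reported or under the alternative, or both, those whose direction turned were all in ASZ cells. Ratios that passed neither time turned in both lines, among them Srebf2, Idi1, Fdft1 and Lss in RasV12 cells with equal FPKM sums, and in ASZ cells Idi1, Fdft1 and Lss with equal FPKM sums and Cyp51 with length subtracted. With length subtracted the log2 ratio was 0.75 for Srebf2, 0.89 for Hsd17b7, 0.074 for Sc5d, 0.49 for Mbtps1, 0.40 for Npc1, 0.19 for Soat1, 1.14 for Fasn, 0.94 for Pggt1b and 0.76 for Nus1. With equal FPKM sums it was -0.51 for Scarb1, -0.51 for Acaca and -0.48 for Scd1. Subtraction of 1 value from all genes or from a length bin moves ratios by construction, and which scaling is right was not tested. Because the SE is an upper bound at the lowest p, counts under another scaling may be too low, above all in RasV12 cells. The threshold of p under 0.001 was chosen after seeing the data. No paired analysis was possible because the tables hold no value per library, and leaving out a replicate was not run for the same reason.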
